A study of Homo sapiens with 4 samples.

Results

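Interferon-stimulated genes are genes that a cell switches on when it senses interferon, the protein by which cells warn one another of infection. A list of 40 such genes was followed here through RNA-seq of a human cell line before and after DNA damage. The members were found among the genes counted by their symbols. Of the 40 genes, 39 had a row among the 59050 genes counted and 1 was not analysed here. The cells were labelled HepG2, a human line established from a liver tumor. There were 2 untreated libraries, of cells at 0 h, and 2 libraries of cells given 1 ug/ml doxorubicin for 24 h. Doxorubicin slips between the bases of DNA and traps topoisomerase on it, which breaks the strands and activates the tumor suppressor p53. No group carried a named genetic change. The treatment field of the doxorubicin libraries names p53 and miRNA, while their titles name p53 and the protocol names the drug. The titles of the untreated libraries read nop53, and the study writes of the DNA damage as activation of p53. Since the untreated cells were taken at 0 h, the drug and 24 h in culture cannot be told apart. The study calls the replicates biological, and nothing says how the cultures were kept apart, so the spread between replicates may be partly technical.

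Type I and type III interferons bind receptors on the cell surface and activate the kinases JAK1 and TYK2, which phosphorylate STAT2. With IRF9, STAT2 is part of the complex ISGF3, which binds a DNA element called the interferon-stimulated response element (ISRE) in the promoters of its targets. Damaged DNA that leaks into the cytoplasm can start the same response through the sensor cGAS and the adaptor STING, and a part of the list can also be switched on by IRF1 or IRF3 without interferon. The comparison of treated with untreated cells asks whether the members were higher after doxorubicin.

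The libraries held between 27572740 and 36272180 counts. A gene had to pass the low count filter of edgeR, which here meant about 10 counts in at least 2 libraries, and 35 members were among the 17479 genes tested. The untreated replicates were less alike than the doxorubicin replicates. Across the genes tested, the Pearson correlation of log2 CPM (CPM is a count scaled to its library total) was 0.887 between the untreated replicates and 0.988 between the doxorubicin replicates. Untreated replicate 1 had a correlation of 0.979 and 0.975 with the doxorubicin libraries, while untreated replicate 2 had 0.886 and 0.883. These correlations are across genes, which are not independent replicates. Because the untreated libraries differed, every comparison was made with both untreated libraries and with each of them alone. Genes that define the liver were almost without counts, with at most 3 for ALB, 2 for TTR and 1 for SERPINA1 in any library, so the name HepG2 is that of the label.

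With all 4 libraries, no member passed the test. Of the 35 members tested, 0 were up-regulated or down-regulated at the thresholds of the study, an adjusted p-value under 0.05 with at least a 2-fold change in either direction (edgeR quasi-likelihood test, Benjamini-Hochberg), and the same count over all 17479 genes was 0 (a background of 0%). DESeq2 and the exact test of edgeR also called 0 members, while 1, IFI44L, was called by its likelihood ratio test (adjusted p = 0.0251, against 0.135 with the exact test and no adjusted value from DESeq2). MX2 and OAS2 were among further members without an adjusted value from DESeq2, so its 0 does not cover all 35. The adjusted p-values of the members lay between 0.773 and 0.989. Without adjustment, 7 members had a p-value under 0.05 with higher values after doxorubicin, against a background of 2.66% of all genes, and 0 members had one with lower values, against 1.73%. The 7 were IFI27, IFI44, IFI44L, IFIH1, MX2, SAMD9L and SP110. IFI44L, MX2 and SP110 passed the low count filter only through the doxorubicin libraries, and of the 32 members that passed it in an untreated library 4 were among the 7. The median log2 fold change of the 35 members was 0.43, with 23 above 0, and that of all genes was 0.01, with 50.8% above 0. In bulk RNA, more expressing cells and more RNA per cell cannot be told apart.

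Leaving out untreated replicate 2 changed these counts. In the doxorubicin libraries against untreated replicate 1 alone, 13 members were called up-regulated and 0 down-regulated, where 4.42% of all genes were called up-regulated and 0.566% down-regulated (edgeR quasi-likelihood test, the lone library assumed to vary like the pair). The 13 were IFI6, IFI27, IFI44, IFI44L, IFIH1, ISG20, MX2, OASL, DDX60, RSAD2, SAMD9L, TRIM22 and SP110, and 10 of these passed the low count filter in an untreated library. IFI27, RSAD2 and TRIM22 passed the filter in untreated replicate 2 but not in replicate 1, the only untreated library compared. Their CPM in untreated replicate 1 was 0.0551, 0.0827 and 0.221. The members' median log2 fold change was 0.93, with 32 of 35 above 0, beside 0.05 for all genes, of which 54% were above 0. Against untreated replicate 2 alone, 9 members were called up-regulated (IFI27, IFI44, IFI44L, IFIH1, DDX60, USP18, SAMD9, SAMD9L and SP110) and 5 down-regulated (IFI6, MX1, OASL, IRF1 and IRF7). Of the 9, 7 passed the low count filter in an untreated library. In that comparison 21.4% of all genes were called up-regulated and 19.6% down-regulated. The members' median log2 fold change was then 0.12, with 20 of 35 above 0, beside 0.06 for all genes, of which 51.6% were above 0. These medians, and that of 4 libraries, were the same with IFI44L set to its lower bound (given with that gene). Both comparisons use the same doxorubicin libraries. Thus the shift of the list as a whole depended on which untreated library it was set against. Here and below, a test with 1 untreated library took its spread from the doxorubicin pair alone. Of all genes, 46.1% differed at least 2-fold between the untreated replicates and 5.82% between the doxorubicin replicates. The adjusted p-values and calls of such tests therefore leave out the spread between untreated replicates and are not evidence of a drug effect.

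**Figure D1:**
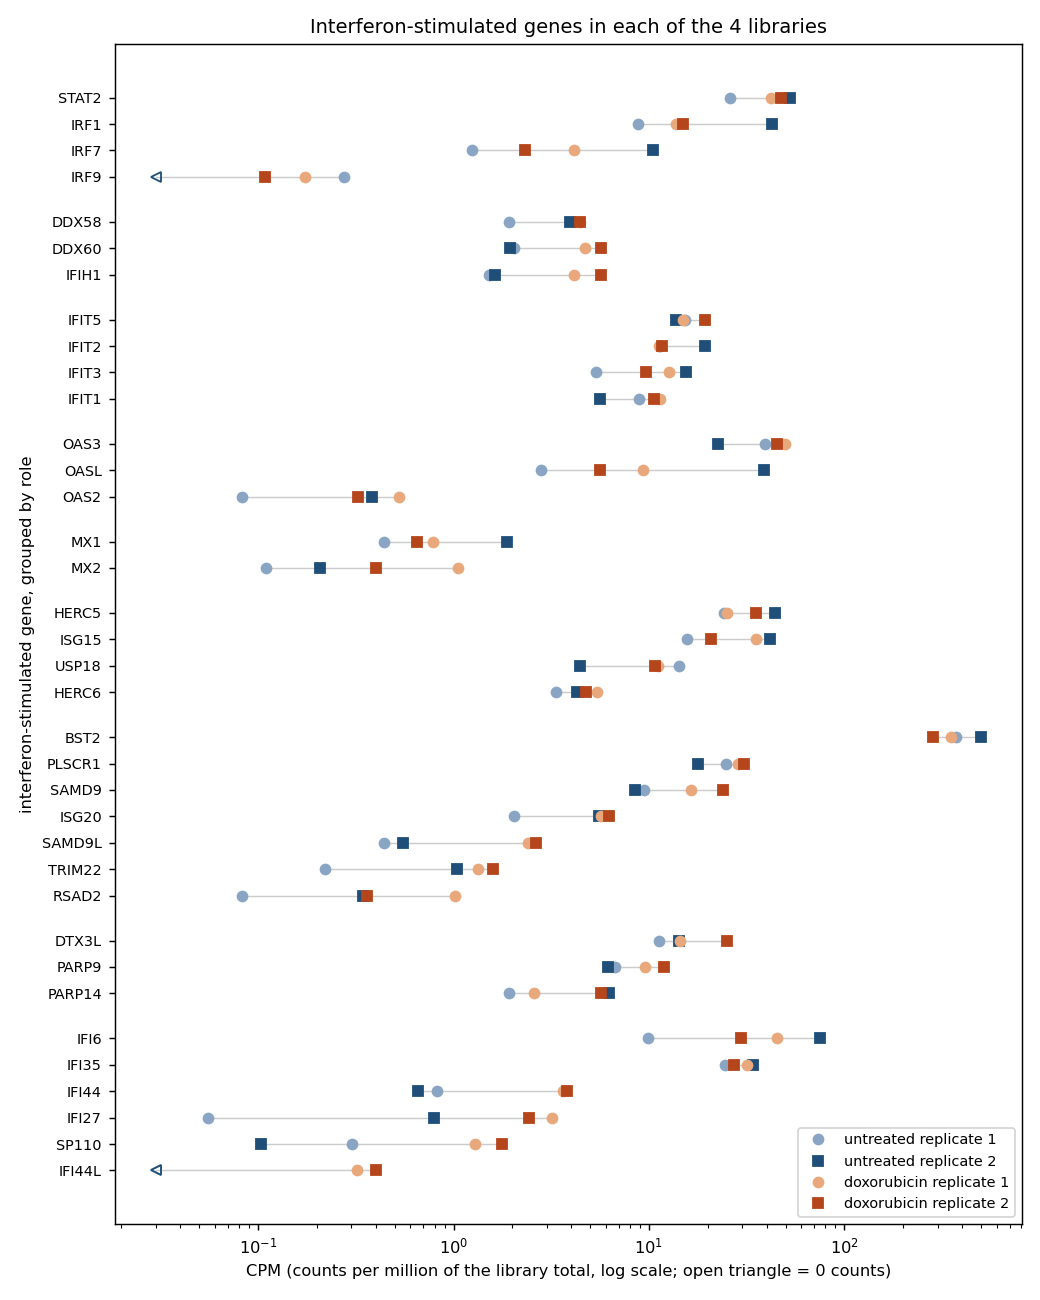
CPM of each member with at least 10 counts in a library (log axis, 1 row per gene, grouped by role); circles and squares are replicates 1 and 2, blue untreated and orange doxorubicin, and open triangles mark 0 counts. IFI44, IFIH1, DDX60, SAMD9L and SP110 have both orange symbols to the right of both blue ones, while for OASL, IRF1, IRF7 and MX1 untreated replicate 2 lies to the right of the other 3 libraries.

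Of the 35 members, 13 had both doxorubicin libraries above both untreated libraries after TMM scaling, and 2 had both below, where 21.3% and 17.9% of all genes did. Of the 32 members that passed the low count filter in an untreated library, 10 were among the 13. The 13 were IFIT1, IFI27, IFI44, IFI44L, IFIH1, MX2, DDX60, SAMD9, SAMD9L, TRIM22, PARP9, PLSCR1 and SP110, and the 2 were IFIT2 and BST2. An exact permutation test of 2 libraries against 2 cannot give a two-sided p-value below 0.333. On the total count alone, without TMM, the log2 fold change of all genes had a median of 0.17, and 19 members (16 of the 32) had both doxorubicin libraries above both untreated ones, against 30.3% of all genes. Only BST2 then lay below, against 11.5% of all genes. After TMM scaling, 17 members differed at least 2-fold between the untreated replicates, where 46.1% of all genes did, and 3 (MX2, RSAD2 and PARP14) between the doxorubicin replicates, where 5.82% did. On the same scale untreated replicate 2 exceeded the other 3 libraries for 14 members and lay under them for 10, against 39.3% and 42.5% of all genes.

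The promoters of the members were searched for the core of the ISRE, since it is the element through which ISGF3 acts on them. The letters searched were GAAANNGAAA, on both strands, in RefSeq promoters of GRCh38.p14 that run from 250 bases before the start of the gene to 50 after it. A promoter was listed for 32 of the 39 members, and 22 of the 32 (68.8%) held at least 1 match. Among all 27305 genes with a promoter 4.38% held one, and among all 35116 promoters 3.57% did. The 200 bases before the first start listed are shown for members that stood apart in the counts, 5′ to 3′ on the strand of the gene, with matches in capitals. IFI44L, IFI44, IFIH1 and DDX60 are shown as genes called up-regulated against each untreated library, IFIT1, ISG15 and IFI6 as classical targets without such calls against both, and BST2 as the member with the most counts. IFI27, SAMD9L and SP110 were also called up-regulated against each untreated library and are not shown. Of these, IFI27 held matches, while SAMD9L and SP110 held none.
IFI44L, chr1:78620248-78620447, plus strand: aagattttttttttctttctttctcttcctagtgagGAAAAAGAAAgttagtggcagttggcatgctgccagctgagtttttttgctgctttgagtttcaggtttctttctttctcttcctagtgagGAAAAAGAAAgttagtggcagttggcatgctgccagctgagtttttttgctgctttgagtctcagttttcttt
IFI44, chr1:78649589-78649788, plus strand: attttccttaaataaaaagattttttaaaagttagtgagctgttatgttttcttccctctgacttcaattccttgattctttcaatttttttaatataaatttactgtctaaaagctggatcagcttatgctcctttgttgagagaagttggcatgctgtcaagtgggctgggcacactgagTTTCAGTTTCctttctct
IFIH1, chr2:162318685-162318884, minus strand: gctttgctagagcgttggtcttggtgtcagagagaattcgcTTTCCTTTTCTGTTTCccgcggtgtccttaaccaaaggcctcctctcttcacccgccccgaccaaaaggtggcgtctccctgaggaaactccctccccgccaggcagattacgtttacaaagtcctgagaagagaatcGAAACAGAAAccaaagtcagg
DDX60, chr4:168318753-168318952, minus strand: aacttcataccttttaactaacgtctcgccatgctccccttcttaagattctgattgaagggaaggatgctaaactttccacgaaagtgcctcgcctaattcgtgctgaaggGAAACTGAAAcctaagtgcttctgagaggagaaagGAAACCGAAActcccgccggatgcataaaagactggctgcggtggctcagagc
IFIT1, chr10:89392423-89392622, plus strand: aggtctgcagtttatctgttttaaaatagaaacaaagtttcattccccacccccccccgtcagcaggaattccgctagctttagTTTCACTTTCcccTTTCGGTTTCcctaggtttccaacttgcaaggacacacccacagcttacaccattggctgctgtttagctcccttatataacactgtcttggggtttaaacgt
ISG15, chr1:1013297-1013496, plus strand: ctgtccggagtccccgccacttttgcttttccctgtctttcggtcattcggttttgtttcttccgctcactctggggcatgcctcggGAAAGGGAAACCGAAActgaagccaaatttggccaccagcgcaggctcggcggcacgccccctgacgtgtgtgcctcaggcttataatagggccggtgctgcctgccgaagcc
IFI6, chr1:27672193-27672392, minus strand: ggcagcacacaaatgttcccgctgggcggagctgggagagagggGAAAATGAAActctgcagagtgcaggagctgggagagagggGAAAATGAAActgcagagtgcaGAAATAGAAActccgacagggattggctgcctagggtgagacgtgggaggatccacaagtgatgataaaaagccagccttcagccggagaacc
BST2, chr19:17405631-17405830, minus strand: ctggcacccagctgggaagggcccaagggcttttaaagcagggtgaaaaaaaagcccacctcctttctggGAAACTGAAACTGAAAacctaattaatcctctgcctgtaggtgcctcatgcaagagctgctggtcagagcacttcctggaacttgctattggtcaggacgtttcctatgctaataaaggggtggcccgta

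Matches on the opposite strand appear as the reverse complement, as in IFI44 and IFIT1, and in IFIH1, ISG15 and BST2 a pair of matches overlap. It was found that genes with and without higher counts after doxorubicin held the same letters. IFI6 and IFIH1 held 3 matches each and ISG15, IFIT1, BST2, IFI44L and DDX60 held 2, while the promoters listed for SAMD9L, SP110, STAT2, IRF1, IRF9, IFI35, HERC6, CMPK2, XAF1 and DDX58 held none. The absence of a match says only that these letters are not in this window. PARP9 and DTX3L lie head to head on chromosome 3 and overlap at their starts, and each gene held 1 match.

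**Figure D2:**
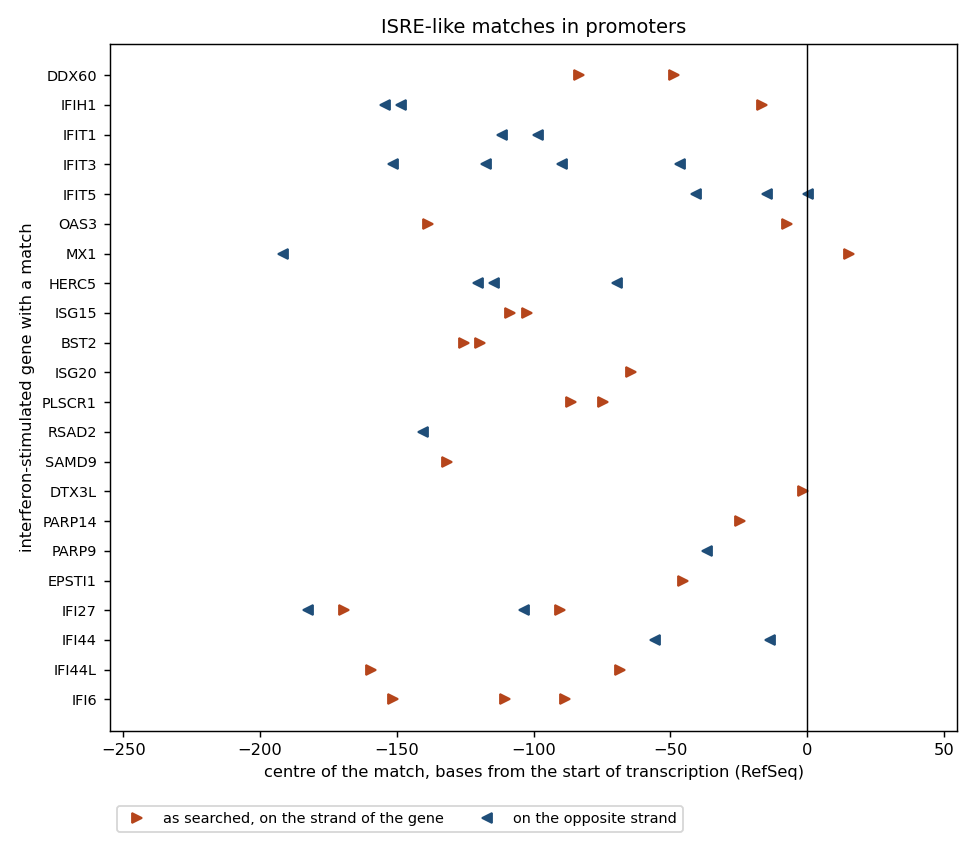
Distance of each match to GAAANNGAAA from the start of transcription in bases (horizontal axis) for the 22 members with a match, over all the promoters RefSeq lists for a gene; right-pointing orange symbols lie on the strand of the gene and left-pointing blue ones on the opposite strand. Nearly all matches lie before the start, and the genes with the most matches include members with and without higher counts after doxorubicin.

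Each of the sensors of viral RNA had a higher CPM in both doxorubicin libraries than in both untreated ones, though for DDX58 this was lost after TMM scaling. IFIH1 (chromosome 2, 162267074 to 162318684, minus strand, GRCh38) encodes MDA5, a helicase that recognises long duplex RNA. Its CPM was 1.52 and 1.63 without the drug and 4.14 and 5.66 with it, so the groups did not overlap. It differed by 1.47 ± 0.53 in log2 fold change (± standard error, SE, unadjusted p = 0.0357, adjusted p = 0.773, edgeR). It was 1.54 against untreated replicate 1 alone (edgeR adjusted p = 0.0064) and 1.39 against untreated replicate 2 alone (edgeR adjusted p = 0.0027), and the call was up-regulated in each. DDX60 (chromosome 4, 168216291 to 168318883, minus strand), a helicase that assists these sensors, had a CPM of 2.04 and 1.94 without the drug and 4.69 and 5.69 with it. Its log2 fold change was 1.22 ± 0.51 (SE, unadjusted p = 0.0581, edgeR), and 1.20 and 1.23 against each untreated library alone (edgeR adjusted p = 0.0347 and 0.0063). These values were nearly the same whichever untreated library was used. DDX58 encodes RIG-I, the sensor of short RNA with a triphosphate end. It had a CPM of 1.93 and 3.95 without the drug and 4.46 and 4.42 with it, with a log2 fold change of 1.06 against untreated replicate 1 and -0.01 against untreated replicate 2. Other genes overlap 87.7% of its exon bases, and whether the counting used strand is not given in the sources used here, so its counts are uncertain.

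Among the small interferon-induced and other proteins that were tested, IFI44, IFI44L, SP110 and IFI27 (given below) had groups that did not overlap. IFI44 (chromosome 1, 78649796 to 78664078, plus strand), a cytoplasmic protein of the interferon response, had a CPM of 0.827 and 0.658 without the drug and 3.64 and 3.81 with it. Its doxorubicin replicates were close to each other and far from both untreated libraries. The log2 fold change was 2.15 ± 0.57 (SE, unadjusted p = 0.0108, adjusted p = 0.773, edgeR), with 2.03 and 2.31 against each untreated library alone (edgeR adjusted p = 0.0010 and 3.7e-05). Its neighbour IFI44L (chromosome 1, 78619902 to 78646145, plus strand) had 0 counts in both untreated libraries and 11 in each doxorubicin library. With a floor of 3 counts per untreated library, its CPM was at least 3.86-fold higher after doxorubicin. Against a single untreated library it was called up-regulated with an edgeR adjusted p-value of 0.0187 (replicate 1) and 0.0048 (replicate 2). SP110 (chromosome 2, 230165186 to 230225729, minus strand), a nuclear body protein, had a CPM of 0.303 and 0.104 without the drug and 1.28 and 1.78 with it, again without overlap. For SP110 the log2 fold change was 2.65 ± 0.72 (SE, unadjusted p = 0.0115, adjusted p = 0.773, edgeR), and 2.17 against untreated replicate 1 alone (edgeR adjusted p = 0.0141). Untreated replicate 2 held 3 counts of it, and the ratio to that library was 14.5 with an exact 95% interval of 4.80 to 71.4, which covers counting error only. Other genes overlap 12.1% of the exon bases of SP110.

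IFI27 and IFI6 are small membrane proteins that are widely used as markers of type I interferon activity, and they differed between the untreated libraries more than most members. IFI27 (chromosome 14, 94104836 to 94116695, plus strand) had a CPM of 0.0551 and 0.797 without the drug and 3.18 and 2.43 with it. The fitted log2 fold change was 2.67 ± 0.92 (SE, unadjusted p = 0.0298, adjusted p = 0.773, edgeR), and 1.64 against untreated replicate 2 alone (edgeR adjusted p = 0.0033). Only 2 counts were found in untreated replicate 1, and the ratio to that library was 51.6 with an exact 95% interval of 14.1 to 429. The groups did not overlap, but the size of the change rests on which untreated library is used. IFI6 (chromosome 1, 27666064 to 27672212, minus strand) had a CPM of 9.92 in untreated replicate 1 and 74.8 in untreated replicate 2, with 45.2 and 29.7 in the doxorubicin libraries between them. Thus its log2 fold change was -0.32 ± 0.90 (SE) with 4 libraries, 1.78 against untreated replicate 1 (edgeR adjusted p = 7.5e-08) and -1.18 against untreated replicate 2 (edgeR adjusted p = 2.1e-06). Other genes overlap 23.1% of the exon bases of IFI6. IFI35, which binds other interferon-induced proteins, had a CPM of 24.5, 34.1, 31.9 and 27.3 (here and below, 4 values are untreated replicate 1, untreated replicate 2, doxorubicin replicate 1 and doxorubicin replicate 2). Its groups overlapped, and its log2 fold change of -0.14 was 0.01 on the total count alone.

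**Figure D3:**
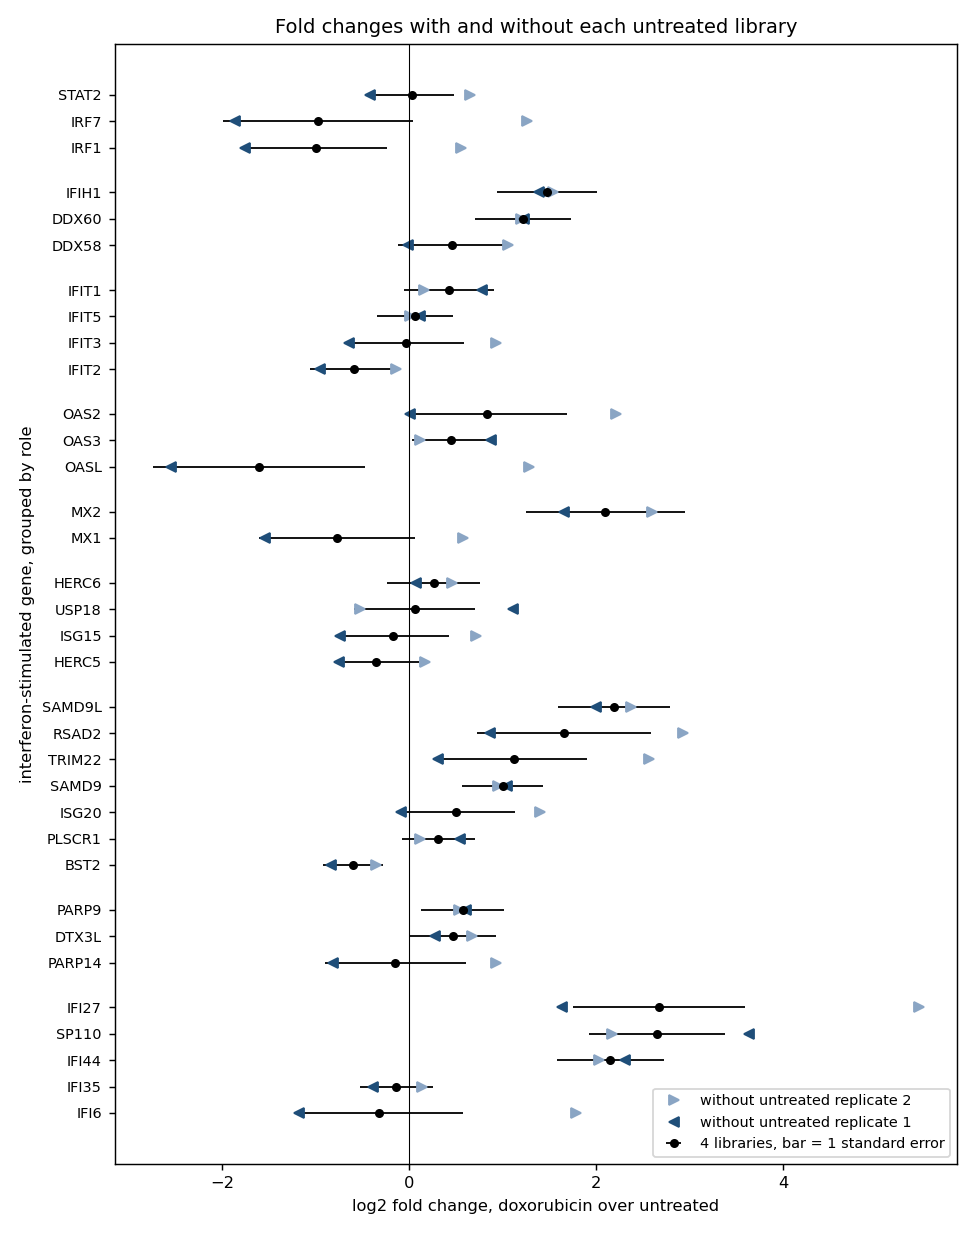
Log2 fold change of doxorubicin over untreated cells for the members tested, apart from IFI44L, grouped by role; black points are the fit of 4 libraries with 1 standard error, and triangles are the fits without untreated replicate 2 (pale, pointing right) and without untreated replicate 1 (dark, pointing left). Triangles lie close together for IFIH1, DDX60, IFI44 and SAMD9 and on opposite sides of 0 for OASL, IRF7, IRF1 and IFI6.

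Among the other direct antiviral effectors, SAMD9 and SAMD9L were higher in both doxorubicin libraries. These neighbouring genes on chromosome 7 encode related proteins that restrict poxviruses and slow translation and growth. SAMD9L (93130056 to 93148385, minus strand) had a CPM of 0.441 and 0.554 without the drug and 2.42 and 2.65 with it. Its log2 fold change was 2.19 ± 0.59 (SE, unadjusted p = 0.0119, adjusted p = 0.773, edgeR), with 2.37 and 2.00 against each untreated library alone (edgeR adjusted p = 0.0010 for each). SAMD9 (93099513 to 93118023, minus strand) was more abundant, with a CPM of 9.40 and 8.52 without the drug and 16.4 and 23.9 with it. For SAMD9 the log2 fold change was 1.00 ± 0.43 (SE, unadjusted p = 0.0629, edgeR), with 0.95 and 1.05 against each untreated library alone (edgeR adjusted p = 0.0215 and 0.0012). Both genes had untreated replicates that lay close to each other and below both treated ones.

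TRIM22, a ubiquitin ligase that restricts retroviruses, had a CPM of 0.221 and 1.04 without the drug and 1.34 and 1.60 with it. The log2 fold change of TRIM22 was 1.12 ± 0.78 (SE, adjusted p = 0.773, edgeR). It was 2.57 against untreated replicate 1 (edgeR adjusted p = 0.0051) and 0.31 against untreated replicate 2 (edgeR adjusted p = 0.625). RSAD2 encodes viperin, which makes a chain-terminating nucleotide, and its CPM was 0.0827, 0.346, 1.02 and 0.363. Doxorubicin replicate 1 alone stood above the rest. Untreated replicate 1 held 3 counts of RSAD2, and the ratio to that library was 8.79 with an exact 95% interval of 2.82 to 44.2. ISG20, an exonuclease that degrades viral RNA, had a CPM of 2.04, 5.58, 5.65 and 6.27. It was called up-regulated against untreated replicate 1, with a log2 fold change of 1.40 (edgeR adjusted p = 0.0084), and had -0.09 against untreated replicate 2. Thus TRIM22, RSAD2 and ISG20 were each called up-regulated against untreated replicate 1 and not against untreated replicate 2, and the difference between these comparisons was not tested.

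BST2 (chromosome 19, 17402939 to 17405630, minus strand) encodes tetherin, which holds budding viruses to the cell surface. It was by far the most abundant member per length, with a mean of 377 CPM per kb of exon, ahead of IFI6 with 42.6, ISG15 with 32.6, IFI35 with 23.9 and PLSCR1 with 12.1. BST2 took 57.3% and 50.2% of the members' summed CPM in untreated replicates 1 and 2, and 45.1% in doxorubicin replicate 1. Its CPM was 371 and 501 without the drug and 353 and 286 with it, and both treated libraries lay below both untreated ones. The log2 fold change was -0.60 ± 0.32 (SE, unadjusted p = 0.112, adjusted p = 0.773, edgeR), with -0.35 against untreated replicate 1 (edgeR adjusted p = 0.377) and -0.83 against untreated replicate 2 (edgeR adjusted p = 0.00037). The latter was smaller than 1 in size and so was not a call. PLSCR1, a phospholipid scramblase that blocks virus entry, had a CPM of 24.9, 17.9, 28.6 and 30.7, with a log2 fold change of 0.31 ± 0.39 (SE). The members together summed to 646, 997, 782 and 715 CPM, and without BST2 to 276, 497, 429 and 429 CPM. On both sums the doxorubicin libraries lay between the untreated ones.

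The proteins that block translation of viral RNA, the IFIT family on chromosome 10, are among the most strongly induced genes in an interferon response. None of the 4 was called in any of these comparisons. IFIT1, which binds RNA without the methyl mark of the host cap, had a CPM of 8.93 and 5.61 without the drug and 11.3 and 10.6 with it. Its groups did not overlap, but its log2 fold change was 0.43 ± 0.48 (SE), with 0.16 against untreated replicate 1 and 0.78 against untreated replicate 2 (edgeR adjusted p = 0.829 and 0.0306). IFIT2 and IFIT3, which form complexes with IFIT1, were highest in untreated replicate 2. IFIT2 had a CPM of 11.4, 19.4, 11.2 and 11.6 and a log2 fold change of -0.59 ± 0.47 (SE). IFIT3 had a CPM of 5.38, 15.4, 12.7 and 9.68 and a log2 fold change of -0.03, which was 0.11 on the total count alone. IFIT5, the family member that binds the triphosphate end of RNA, had a CPM of 15.3, 13.8, 15.0 and 19.3 and a log2 fold change of 0.07 ± 0.41 (SE).

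The oligoadenylate synthases make a messenger molecule in response to viral RNA, and 3 of them had a row. OAS3, which responds to long duplex RNA, had a CPM of 39.5, 22.6, 49.4 and 45.0. For OAS3 the log2 fold change was 0.45 ± 0.42 (SE), with 0.12 against untreated replicate 1 and 0.88 against untreated replicate 2 (edgeR adjusted p = 0.841 and 0.0018). OAS2 had a CPM of 0.0827, 0.381, 0.525 and 0.326, at 18 counts or fewer in every library. It held 3 counts in untreated replicate 1, and the ratio to that library was 5.27 with an exact 95% interval of 1.62 to 27.2. OASL (chromosome 12, 121017763 to 121039246, minus strand) lacks the enzyme activity and instead enhances RIG-I. It showed the largest split between the untreated libraries among members of its role, with a CPM of 2.81 and 38.7 without the drug and 9.35 and 5.59 with it. It had a log2 fold change of -1.60 ± 1.13 (SE, adjusted p = 0.773, edgeR). It was called up-regulated against untreated replicate 1, at 1.29 (edgeR adjusted p = 0.0102), and down-regulated against untreated replicate 2, at -2.54 (edgeR adjusted p = 2.9e-20).

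The MX proteins are dynamin-like GTPases that trap viral particles, and both genes lie on chromosome 21. MX2 had a CPM of 0.110 and 0.208 without the drug and 1.05 and 0.399 with it, from 4 to 36 counts. The groups did not overlap, and the doxorubicin replicates were more than 2-fold apart. The log2 fold change of MX2 was 2.10 ± 0.85 (SE, unadjusted p = 0.0488, adjusted p = 0.773, edgeR), with 2.60 against untreated replicate 1 (edgeR adjusted p = 0.0346) and 1.66 against untreated replicate 2 (edgeR adjusted p = 0.0553). MX1, often used as the marker of type I and III interferon, had a CPM of 0.441, 1.87, 0.787 and 0.653. Its treated libraries lay between the untreated ones, with a log2 fold change of -0.77 ± 0.84 (SE). Against untreated replicate 2 alone MX1 was called down-regulated, at -1.54 (edgeR adjusted p = 0.0038).

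ISG15 is a ubiquitin-like protein that HERC5 attaches to other proteins and USP18 removes. ISG15 (chromosome 1, 1001138 to 1014540, plus strand) had a CPM of 15.6 and 41.5 without the drug and 35.2 and 20.9 with it, so the groups overlapped in full. Its log2 fold change was -0.17 ± 0.60 (SE), with 0.72 against untreated replicate 1 and -0.74 against untreated replicate 2 (edgeR adjusted p = 0.0863 and 0.0059). HERC5 had a CPM of 24.2, 44.2, 24.9 and 35.3 and a log2 fold change of -0.35 ± 0.45 (SE). HERC6, its relative, had a CPM of 3.36, 4.26, 5.39 and 4.75 and a log2 fold change of 0.26 ± 0.50 (SE). USP18, which also dampens the interferon receptor, went the other way between the untreated libraries, with a CPM of 14.2, 4.43, 11.1 and 10.7. It was called up-regulated against untreated replicate 2, at 1.12 (edgeR adjusted p = 0.0025), and had -0.52 against untreated replicate 1. A nearly identical copy of USP18, USP41, lies on the same chromosome, so its reads may have been split. None of the genes of this system was called with all 4 libraries.

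PARP9 and DTX3L form a complex that marks histones at sites of interferon signalling and of DNA damage. PARP9 had a CPM of 6.73 and 6.20 without the drug and 9.53 and 12.0 with it, with a log2 fold change of 0.57 ± 0.45 (SE). DTX3L had a CPM of 11.2, 14.3, 14.5 and 25.1 and a log2 fold change of 0.47 ± 0.46 (SE). Both genes were highest in doxorubicin replicate 2, and DTX3L of untreated replicate 2 was close to doxorubicin replicate 1. PARP14, an enzyme of the same family, had a CPM of 1.93, 6.23, 2.59 and 5.66 and a log2 fold change of -0.15, which was 0.02 on the total count alone. None of these was called in any of the comparisons.

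For the transcription factors of the pathway, the treated and untreated libraries overlapped. STAT2 had a CPM of 26.0, 52.6, 42.3 and 47.5 and a log2 fold change of 0.04 ± 0.45 (SE), which was -0.02 with RLE scaling. IRF1 (chromosome 5, 132440440 to 132508719, minus strand, 15.4% of exon bases overlapped by other genes), which switches on part of the list without ISGF3, had a CPM of 8.82 and 42.5 without the drug and 13.7 and 15.0 with it. IRF7, the factor that drives production of interferon alpha, had a CPM of 1.24 and 10.5 without the drug and 4.14 and 2.32 with it. For both, untreated replicate 2 stood far above the other 3 libraries. With 4 libraries their log2 fold changes were -0.99 ± 0.76 (SE) for IRF1 and -0.97 ± 1.01 (SE) for IRF7. Against untreated replicate 2 alone both were called down-regulated, at -1.75 and -1.86 (edgeR adjusted p = 3.7e-11 and 7.5e-08), and against untreated replicate 1 they had 0.56 and 1.26 (edgeR adjusted p = 0.277 and 0.0543). IRF9 had 10, 0, 6 and 3 counts and did not pass the filter, and other genes overlap 45.6% of its exon bases. The remaining members that did not pass were CMPK2 with 0 counts in every library, EPSTI1 with at most 1 and XAF1 with at most 5.

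The rest of the pathway was read from lists of genes that are not members. Of 22 interferon genes, 21 had fewer than 10 counts in every library and 10, IFNB1 included, had 0 in every library, while the largest count among the others was 6. At this depth, 3 counts correspond to between 0.0827 and 0.109 CPM, and many interferon alpha genes are near-identical copies, so low levels were not detectable. The exception was IFNE, an interferon of epithelia that is not induced by infection, with 15, 0, 24 and 18 counts. Of the receptors and kinases, 10 of 11 genes were tested and 0 had an unadjusted p-value under 0.05, with a median log2 fold change of 0.17. Over all genes, 2.66% had such a p-value with higher values and 1.73% with lower values. JAK1 had a CPM of 162, 59.7, 167 and 200. Of the negative regulators, 7 of 7 were tested and 0 had an unadjusted p-value under 0.05, and here untreated replicate 2 stood apart again, with a SOCS1 CPM of 0.579, 10.8, 0.991 and 1.05 and a TRIM21 CPM of 9.59, 51.4, 11.9 and 12.5.

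Among the genes of nucleic acid sensing, 13 of 14 were tested, and 2 had an unadjusted p-value under 0.05, both higher after doxorubicin. Over all genes, 2.66% were higher and 1.73% lower at that p-value. IFI16, a nuclear sensor of DNA, had a CPM of 27.5 and 20.5 without the drug and 48.1 and 77.6 with it. Its log2 fold change was 1.22 ± 0.41 (SE, unadjusted p = 0.0264, adjusted p = 0.773, edgeR), with 1.05 and 1.42 against each untreated library alone (edgeR adjusted p = 0.0019 and 3.1e-07). AIM2, a related sensor that activates the inflammasome, had 1 and 0 counts without the drug and 15 and 13 with it (unadjusted p = 0.0084, adjusted p = 0.773, edgeR). AIM2 passed the low count filter only through the doxorubicin libraries. CGAS had a CPM of 43.4, 52.0, 38.1 and 42.9, with both treated libraries the lower, and a log2 fold change of -0.40 ± 0.34 (SE). The STING gene TMEM173 had a CPM of 17.2, 16.9, 21.4 and 16.1, so its groups overlapped. IRF3, the factor that acts below STING, had a CPM of 96.1, 330, 101 and 99.2, with untreated replicate 2 far above the rest. Of the genes of nucleic acid clearance and editing, 6 of 7 were tested, with a median log2 fold change of -0.11 and 0 with an unadjusted p-value under 0.05. EIF2AK2, the kinase PKR, which blocks translation when it binds RNA, had a CPM of 48.4, 16.4, 51.2 and 74.8.

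Targets shared with interferon gamma were mostly low, and 6 of 13 were tested, with 1 at an unadjusted p-value under 0.05. At that p-value 2.66% of all genes were higher and 1.73% lower. GBP3, a guanylate-binding GTPase, had a CPM of 0.386 and 0.277 without the drug and 2.30 and 1.56 with it, and its log2 fold change was 2.37 ± 0.67 (SE, unadjusted p = 0.0136, adjusted p = 0.773, edgeR). GBP2 had a CPM of 1.43, 0.485, 3.21 and 3.16. CD274, the checkpoint ligand PD-L1, had a CPM of 1.16, 0.727, 2.16 and 3.05. In GBP2, GBP3 and CD274 both doxorubicin libraries lay above both untreated ones, also after TMM scaling, where 21.3% of all genes did. The other genes of this list that were tested, WARS, ICAM1 and CIITA, had groups that overlapped after TMM scaling, WARS only then. CXCL11, which was not tested, had most of its counts in untreated replicate 2. Of 15 genes of antigen presentation 7 were tested, with a median log2 fold change of -0.01, and B2M had a CPM of 60.8, 123, 91.5 and 112. Of the 10 listed genes that lie in the MHC region of chromosome 6, 8 had fewer than 10 counts in every library. Widely used genes of that region, chosen after the values were seen, were low too, with at most 10 counts for RPS18, 5 for TUBB and 0 for DDX39B, although BRD2 reached 192, so the low counts of HLA genes are not read as low expression. As a check of the drug, CDKN1A, the p53 target that encodes p21, had a log2 fold change of 0.44 ± 0.44 (SE), MDM2 0.41 ± 0.35 (SE) and GDF15 1.26 ± 0.45 (SE, unadjusted p = 0.0333, edgeR). Against untreated replicate 1 alone CDKN1A and GDF15 were called up-regulated, at 1.17 and 2.02 (edgeR adjusted p = 3.8e-05 and 5.2e-14), and MDM2 had 0.23 (edgeR adjusted p = 0.652). Against untreated replicate 2 alone none of the 3 was called, with -0.06 for CDKN1A, 0.75 for GDF15 and 0.61 for MDM2 (edgeR adjusted p = 0.830, 0.0029 and 0.0276).

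Markers of other cells moved with untreated replicate 2 and with the treatment. The 10 leukocyte markers summed to 1.38, 17.5, 0.933 and 1.05 CPM, of which CD14 gave 16.7 CPM in untreated replicate 2. CD68 and LST1 were at 0 in every library, and 8 of the 10 stayed under 10 counts. The 15 liver markers summed to 1.35, 5.82, 17.2 and 20.1 CPM, mostly from the fibrinogen gene FGG in treated cells. The 8 squamous markers ranged from 1196 to 1959 CPM, the 6 fibroblast markers from 169 to 284 CPM and the 4 endothelial markers from 2.43 to 9.79 CPM. The squamous sum came mostly from KRT17 and SFN, and KRT5, KRT6A, TP63 and DSG3 each had at most 13 counts. KRT16 reached 1495 counts and KRT14 255. The 5 markers of plain epithelium summed to 5899, 4752, 3527 and 3025 CPM. Nearly all of this came from KRT8 and KRT18, while EPCAM had at most 7 counts, KRT19 at most 17 and CDH1 at most 21. What part these marker differences had in the values of the members was not tested. This includes the high untreated replicate 2 of OASL, IRF1, IRF7 and IFI6.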

How the data were processed

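RNA of 4 libraries (2 untreated, 2 doxorubicin), grouped by their titles, was measured by poly(A) RNA-seq. The authors deposited raw read counts per gene symbol, 1 library each. Reads had been cleaned with FastQC and Cutadapt, mapped to hg38 with HISAT2 and counted with HTSeq, according to their methods, and the header of the counts names the GENCODE release 31 basic annotation. Versions and the use of strand are not given in the sources used here. Reads shared by overlapping or near-identical genes can therefore be lost or misplaced.

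CPM is the count divided by the library total. Genes were filtered with filterByExpr (minimum count 10), scaled by TMM and tested with the quasi-likelihood test of edgeR 4.0.16 in R 4.3.3 without covariates, with Benjamini-Hochberg adjustment over all 17479 genes. Standard errors were taken from the fold change and the F statistic. A call needed both an adjusted p-value under 0.05 and, on the log2 scale, a change of 1 or more in either direction. No block on replicate number was used, since the methods of the study name none. As a check, same-numbered libraries did not deviate together (correlation of deviations 0.0219). A floor of 3 counts was used for genes at 0, and counting ratios have exact 95% intervals that cover counting error only. Coordinates and exon lengths are from GENCODE release 44 on GRCh38, where DDX58 is named RIGI, and all 39 symbols were matched. Fits were tested on simulated data. The alternatives included DESeq2 1.42.0, other edgeR tests, scalings and filters, the block and leaving out each library.

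The members, their roles and the other lists were chosen with earlier results of these data known, and values were given by role for every member with at least 10 counts in a library. Full statistics were given for members with an unadjusted p-value under 0.05, for those of at least 1 in log2 size without overlap between groups, and for the extremes in each direction.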

Additional observations from a re-analysis of the deposited data

How the results depend on the processing

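Of the members, 0 were called with RLE or total count scaling, with DESeq2, the exact test, the other filters or the replicate number as a block, and 1 (IFI44L, adjusted p = 0.0251) with the likelihood ratio test of edgeR. Some members, IFI44L, MX2 and OAS2 among them, had no adjusted value from DESeq2 and so could not be called by it. With 1 library left out in turn the count lay between 0 and 14. It was 14 without untreated replicate 1, 13 without untreated replicate 2 and 0 without either doxorubicin library. Over all genes, 90 were called by DESeq2, 46 by the exact test, 64 by the likelihood ratio test and 20 with the block, and between 0 and 7173 with a library left out. Members with an unadjusted p-value under 0.05 numbered 7, and between 2 and 24 with a library left out. The share of all genes at that p-value was given only for the fit of 4 libraries. The counts of members with a library left out therefore cannot be read as an excess over all genes. The members' median stayed above 0 in every setting, between 0.12 and 0.93. The calls of members went in both directions without untreated replicate 1, and only upward without untreated replicate 2. The share of all genes called, given above for both fits, was far larger without untreated replicate 1. The numbers of members called in these fits are therefore not comparable with each other. The block changed no call of a member. The filter on a mean of at least 10 counts and the earlier form of the edgeR fit were chosen after the data were seen, and each called 0 members.

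With a library left out, 20 members kept the direction of their log2 fold change and 15 did not. The ranges were -0.013 to 1.06 for DDX58, -0.74 to 0.17 for HERC5, -0.39 to 0.14 for IFI35, -1.18 to 1.78 for IFI6, -0.64 to 0.93 for IFIT3, -0.074 to 0.20 for IFIT5, -1.75 to 0.56 for IRF1 and -1.86 to 1.26 for IRF7. They were -0.74 to 0.72 for ISG15, -0.090 to 1.40 for ISG20, -1.54 to 0.58 for MX1, -2.54 to 1.29 for OASL, -0.81 to 0.93 for PARP14, -0.41 to 0.65 for STAT2 and -0.52 to 1.12 for USP18. Under other settings IFIT3 had 0.067 without a filter, 0.12 with the block and 0.11 on the total count, IFI6 had 0.25 with the block, and IFI35 and PARP14 had 0.014 and 0.019 on the total count. STAT2 had -0.015 with the CPM filter, -0.026 with DESeq2 and -0.024 with RLE scaling. The cause of these reversals was not tested. The common dispersion between replicates was 0.236 with 4 libraries, and members at under 20 counts in a library, such as IFI44L, OAS2 and MX2, are limited by counting error as well.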
